A study of Mus musculus with 235 samples.

Results

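The 32 genes described here encode the enzymes that build sterols and long-chain fatty acids, together with the proteins that control those enzymes and 1 sterol carrier. They were taken by symbol from the deposited count table, which lists 27998 genes, in all 8 brain regions and both treatment arms, and all 32 symbols were found. The set holds 7 genes of the mevalonate steps, 11 of the steps from squalene formation to cholesterol, 5 of the sterol sensing system, 1 carrier, 3 of fatty acid synthesis and 5 of elongation and desaturation.

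The tissue came from punches of 8 regions per brain, taken from adult male mice of the C57Bl/6 strain at 3 months of age. Dexamethasone, which activates the glucocorticoid receptor, had been injected into the peritoneum of 15 animals at 10 mg per kg 4 h earlier, and saline into that of the other 15. Saline animals are called vehicle here. Each region gave 13 to 15 libraries per arm, each from 1 region of 1 animal. P-values of dexamethasone against vehicle, in a region or in counts summed per animal, measure the spread between animals. Tests across regions had the animal as a block, and their p-values measure the spread between punches within animals. Library totals ran from 268538 to 1451422 counts. Levels are given as CPM, which are counts scaled to 1000000 per library with normalisation factors.

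The regions are named by abbreviations that the labels do not spell out: dCA1, vCA1, dDG and vDG, and PFC, AMY, PVN and CER. Fkbp5, a direct target of the glucocorticoid receptor, was higher in dexamethasone libraries of every region, by 1.65 to 2.79 on the log2 scale. Genes that define a tissue went against some region names. Gabra6, which marks granule cells of the cerebellum, had 0 of 10257643 counts in the vehicle CER libraries, which allows a level of up to 0.292 CPM. The dexamethasone CER libraries had 11 Gabra6 counts, at most 15.9 CPM in 1 library, and Pcp2, which marks Purkinje cells, had 7 counts in the vehicle CER libraries. If CER stands for cerebellum, these markers were at or near 0, and CER is used only as a label. Prox1, a gene of dentate granule cells, had a median of 533 CPM in vehicle dCA1 libraries and 425 CPM in vehicle dDG libraries, so those labels were not separated by it. In 4 libraries, 1 of vehicle vCA1, 2 of vehicle vDG and 1 of dexamethasone vDG, Gabra6 passed 100 CPM. Tests that rest on these libraries are given with and without them, while regional means, the order of regions and correlations include them. Oxt, a peptide gene of the hypothalamus, had a median of 118 CPM in vehicle PVN libraries and 660 CPM in dexamethasone PVN libraries, with single libraries as low as 1.23 CPM.

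Cholesterol is made in the brain itself, because lipoproteins of the blood do not cross the blood-brain barrier. Much of it goes into myelin, which oligodendrocytes build, and astrocytes supply neurons. The pathway runs from acetyl-CoA through mevalonate and squalene to lanosterol, whose ring is then trimmed in several steps to cholesterol. When membranes hold little sterol, the carrier Scap brings the transcription factors Srebf1 and Srebf2 to the Golgi, where they are cut and released to switch the genes on. Insig1 and Insig2 hold Scap back when sterol is plentiful. Fatty acids are made from citrate through acetyl-CoA and malonyl-CoA, then lengthened and desaturated.

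Most of the genes with a sequence window around a start site held a motif that their choice did not use. RefSeq windows of 250 bases before to 50 bases after a start site, on GRCm38.p6, matched 25 of the 32 genes. The 7 without an entry were Sqle, Fdps, Fdft1, Stard4, Fads1, Scd1 and Scd2. The letters CCAAT, the core of the box bound by NF-Y, were present on either strand in 20 of 25 genes (80%), against 41.1% of 27025 genes with such windows. A sterol element, searched as TCACNCCAC on both strands, was found in 1 gene, Hmgcs1, against 1.44% of genes. The form TCACNTGA was found in Insig2 alone, against 4.78% of genes, and a palindromic glucocorticoid element in none of the 25, against 0.537%. A match describes letters in a window and not a bound site. Hmgcs1 is shown because it holds the sterol element, and Msmo1, Nsdhl and Hsd17b7 because they act in a row on the sterol ring and passed a test after dexamethasone. Each is written on the strand of its gene, with the matched letters in capitals, CCAAT reading ATTGG where it lies on the other strand.
Hmgcs1 promoter (chr13:119690101-119690400, plus strand): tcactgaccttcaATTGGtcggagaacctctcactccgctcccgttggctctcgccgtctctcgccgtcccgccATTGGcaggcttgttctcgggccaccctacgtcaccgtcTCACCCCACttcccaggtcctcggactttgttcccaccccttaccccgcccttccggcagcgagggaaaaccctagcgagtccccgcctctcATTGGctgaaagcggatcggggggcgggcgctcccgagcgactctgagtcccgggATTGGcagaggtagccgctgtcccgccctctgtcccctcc
Msmo1 promoter (chr8:64733529-64733828, minus strand): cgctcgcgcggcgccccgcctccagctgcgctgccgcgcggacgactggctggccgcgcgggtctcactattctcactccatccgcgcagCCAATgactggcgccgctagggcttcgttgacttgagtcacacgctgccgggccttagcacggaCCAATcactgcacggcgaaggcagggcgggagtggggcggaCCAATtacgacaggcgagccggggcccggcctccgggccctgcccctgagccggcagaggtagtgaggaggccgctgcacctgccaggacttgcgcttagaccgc
Nsdhl promoter (chrX:72918271-72918570, plus strand): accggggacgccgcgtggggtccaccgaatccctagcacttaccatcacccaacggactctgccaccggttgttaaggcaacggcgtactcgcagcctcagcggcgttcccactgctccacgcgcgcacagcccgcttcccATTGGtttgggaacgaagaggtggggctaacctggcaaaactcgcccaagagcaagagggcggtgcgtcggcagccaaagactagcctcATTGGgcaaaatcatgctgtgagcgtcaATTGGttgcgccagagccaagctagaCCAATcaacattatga
Hsd17b7 promoter (chr1:169969156-169969455, minus strand): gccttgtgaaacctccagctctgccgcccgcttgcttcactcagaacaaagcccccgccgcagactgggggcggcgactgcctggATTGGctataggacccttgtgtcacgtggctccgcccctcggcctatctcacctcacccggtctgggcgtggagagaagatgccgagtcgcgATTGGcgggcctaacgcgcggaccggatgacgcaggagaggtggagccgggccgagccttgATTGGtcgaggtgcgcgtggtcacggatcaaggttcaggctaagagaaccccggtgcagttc
Hmgcs1 held 4 CCAAT boxes beside its sterol element, Nsdhl 4, and Msmo1 and Hsd17b7 3 each. Of the other genes called in the sums, Sc5d held 1 and Pmvk 1 in the first of its 2 windows. The Acaca window held none of the searched motifs, and it lies around a start site inside the gene as the count table draws it.

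After dexamethasone, few of the 32 genes changed in a single region, and those called without a block for the replicate number were all higher. In each region, genes with enough counts were tested with edgeR's quasi-likelihood test, and the Benjamini-Hochberg adjustment covered all genes tested. A gene is called where its adjusted p was under 0.05. In AMY, 1 of 22 tested genes of the set was called (Acaca), where 5.62% of all genes tested were called, 3.54% higher and 2.08% lower. In CER it was 2 of 28 (Nsdhl and Acaca), against 6.18% of all genes called, 3.9% higher and 2.28% lower. PFC had 1 of 26 (Nsdhl), against 6.14% called, 3.86% higher and 2.28% lower. PVN had 1 of 29 (Scap), against 5.63% called, 3.57% higher and 2.06% lower.

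Among the hippocampal labels, dCA1 had 0 of 23 called by edgeR, with 3 at an unadjusted p under 0.05, against 4.68% of all genes called, 2.57% higher and 2.11% lower. Likewise dDG had 0 of 22, with 2 at an unadjusted p under 0.05, against 3.7% called, 2.33% higher and 1.37% lower. Under DESeq2 both counts were also 0. The shares of all genes given here are from the fits without a block. With the replicate number as a block, 1 gene was called in each: Acaca was higher in dCA1 (log2 fold change 0.50 ± 0.14, SE, edgeR adjusted p = 0.0283), and Fasn was lower in dDG (-0.32 ± 0.09, SE, edgeR adjusted p = 0.0335). In vCA1, 1 of 27 was called (Hsd17b7), against 5.45% called, 3.41% higher and 2.04% lower, and in vDG 2 of 27 (Pmvk and Acaca), against 3.93% called, 2.64% higher and 1.29% lower. With 0 to 2 calls per region, these shares lay near those of all genes. Over the 204 tests of a gene in a region, 134 estimates were positive and 8 were called, from 5 genes. Of all genes tested, 45.0 to 50.4% were positive by region. The 22 genes tested in all 8 regions included 4 whose estimate was positive in every region (Msmo1, Nsdhl, Hsd17b7 and Acaca) and 0 whose estimate was negative in every region.

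Counts summed over the 8 regions of each animal gave more power, with 13 animals per arm and 4760039 to 7076142 counts per animal. On these sums, 7 of 32 genes were called, all higher, against 18.6% of 13375 genes called, 9.74% higher and 8.82% lower. The 7 were Pmvk, Fdft1, Msmo1, Nsdhl, Hsd17b7, Sc5d and Acaca, and the set's share was 21.9%. The median log2 fold change of the set was 0.04, against -0.01 over all genes tested. The sum weights a region by its depth, and only animals with a library of every region entered it. Without the animals that had a library rich in Gabra6, 23 animals were left and 5 of the 7 were called, Fdft1 (log2 fold change 0.28, adjusted p = 0.0549) and Sc5d (0.13, adjusted p = 0.0699) being lost. With all animals these were 0.26 and 0.13. In such bulk tissue, fewer cells of a type and less RNA per cell cannot be told apart.

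**Figure D1:**
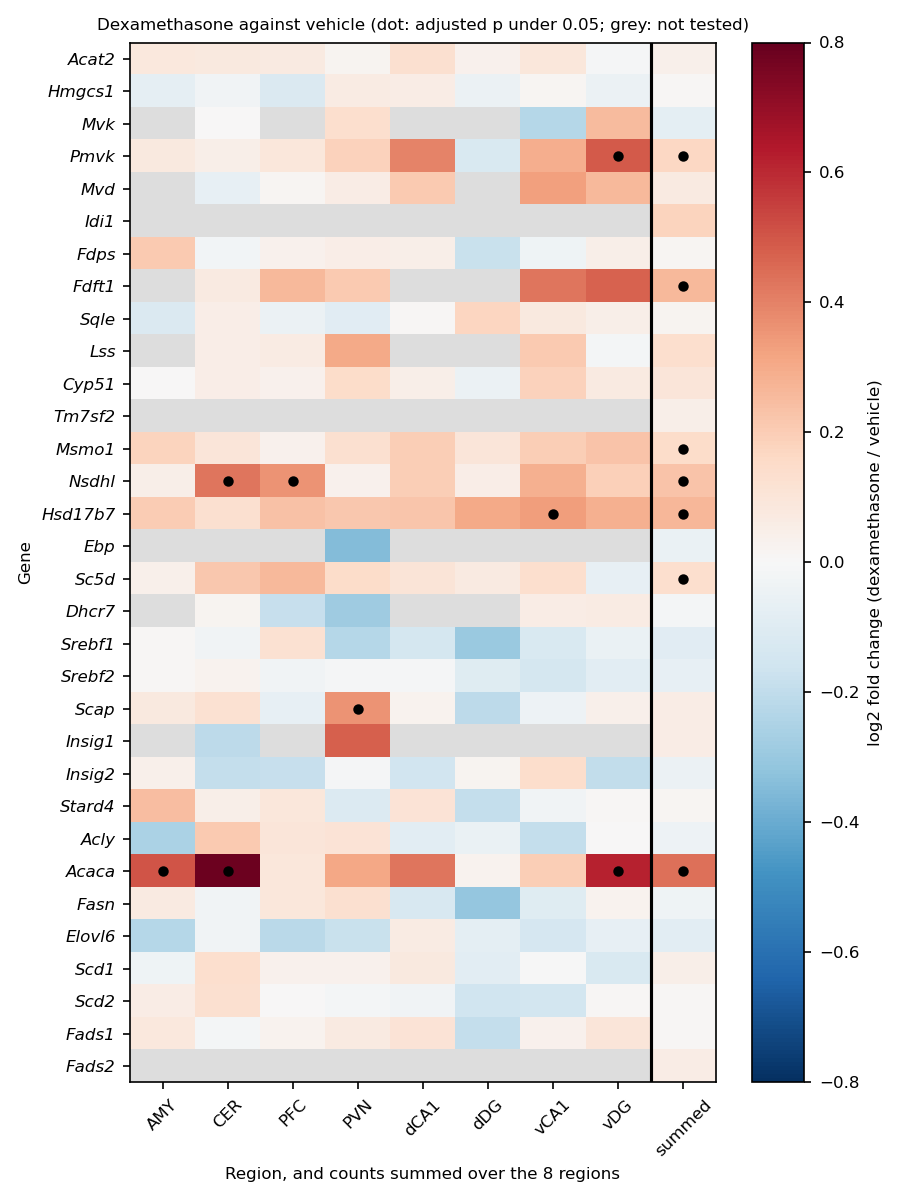
Log2 fold change of dexamethasone against vehicle for the 32 genes (rows, ordered by role) in the 8 regions and in counts summed per animal (right of the line), in colour from -0.8 to 0.8. Dots mark adjusted p under 0.05 in edgeR and grey marks genes with too few counts to be tested; every dot lies on a positive value.

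Genes of several cell types were lower in the same sums, where 8.82% of all genes were lower. Of 11 oligodendrocyte genes, 8 were lower after dexamethasone, with a median log2 fold change of -0.28 and a range from -1.22 to 0.12. Their summed level ran from 4709 to 7110 CPM in vehicle animals and from 4315 to 6862 CPM in dexamethasone animals, and none was at 0. Mbp, an abundant myelin gene, did not pass the test, at 0.01. Of 5 endothelial genes, 4 were lower, with a median of -0.36. Their summed level ran from 234.9 to 279.7 CPM in vehicle and from 164 to 219 CPM in dexamethasone animals. Lower were also 2 of 4 genes of oligodendrocyte precursors and 2 of 5 of microglia. None of 5 neuronal genes was called, and of 6 astrocyte genes 1 was higher and 2 lower. The part of endothelium, precursors and microglia in the results was not tested. With the mean log2 level of the oligodendrocyte genes as a covariate, Acaca, Hsd17b7 and Msmo1 were still called in the sums. Pmvk, Fdft1, Nsdhl and Sc5d were not, with adjusted p of 0.0916, 0.222, 0.11 and 0.183 in edgeR. Their log2 fold changes with the covariate were 0.21, 0.27, 0.18 and 0.15, against 0.17, 0.26, 0.23 and 0.13 without it. Scd1, not called without the covariate, was called with it, at 0.42 against 0.04 (edgeR adjusted p = 1.22e-05). As 8 of the 11 genes in the covariate were themselves lower after dexamethasone, it moved with the treatment. It is therefore not a measure of cell content alone.

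Of the 7 mevalonate genes, 1 was called in the sums, where 18.6% of all genes tested were called. Pmvk, which adds the second phosphate to mevalonate (ENSMUSG00000027952, chr3:89454541-89469013), had 31.0, 34.0 and 41.5 CPM as lowest, median and highest of the 13 vehicle animals. In the 13 dexamethasone animals these were 33.9, 38.7 and 49.3 CPM. The ranges overlapped, and 12 of 13 dexamethasone animals lay above the vehicle median. The log2 fold change was 0.17 ± 0.05 (SE), with an edgeR adjusted p of 0.0223.

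In vDG, Pmvk ran from 19.2 to 50.1 CPM in 15 vehicle libraries, with a median of 29.4 CPM. In 15 dexamethasone libraries it ran from 28.1 to 74.8 CPM with a median of 40.2 CPM. The groups overlapped, and the log2 fold change was 0.49 ± 0.15 (SE, edgeR adjusted p = 0.0453). Of 8 alternatives, 3 lost this call, with adjusted p of 0.0569 under upper-quartile factors, 0.0559 with no filter and 0.0667 without libraries of RNA integrity under 4. The fold change lay between 0.47 and 0.58 in all 8. Without the 3 vDG libraries rich in Gabra6 the fold change was 0.58, with an adjusted p of 0.0182. The dDG estimate was -0.12 and the dCA1 estimate 0.39, neither called. Medians in the regions not called were 27.9 and 31.5 CPM in AMY, 39.6 and 38.9 CPM in CER, 36.2 and 35.4 CPM in PFC, 47.0 and 49.9 CPM in PVN, 30.0 and 36.4 CPM in dCA1, 33.0 and 32.6 CPM in dDG and 27.9 and 35.0 CPM in vCA1. With the 4 hippocampal labels left out of the sum, Pmvk was no longer called, at a log2 fold change of 0.09 and an edgeR adjusted p of 0.469.

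The other mevalonate genes gave summed estimates from -0.08 (Mvk) to 0.18 (Idi1), none called. Hmgcs1, which makes the HMG-CoA that enters the pathway, had a median of 377 CPM in vehicle animals and 378 CPM in dexamethasone animals. Its log2 fold change was 0.01 ± 0.04 (SE), and its regional estimates ran from -0.11 in PFC to 0.06 in PVN. Acat2, which joins 2 acetyl-CoA, gave 0.04 in the sums. Fdps, the farnesyl diphosphate synthase, gave 0.01 and Mvd, which makes isopentenyl diphosphate, 0.07. Idi1, the isomerase of that product, passed the count filter in no region and had medians of 3.68 and 3.78 CPM in the sums.

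The steps after farnesyl diphosphate held 5 of the 7 calls in the sums and 3 of the 8 calls in single regions. Of these 11 genes, 5 were higher in the sums and none lower, against 9.74% of all genes higher and 8.82% lower, with a median log2 fold change of 0.13. The 5 were Fdft1, Msmo1, Nsdhl, Hsd17b7 and Sc5d. Msmo1, Nsdhl and Hsd17b7 act one after another in the removal of methyl groups from the sterol ring, and Sc5d desaturates the ring later.

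Hsd17b7, the ketoreductase of that demethylation (ENSMUSG00000026675, chr1:169949535-169969241), had 55.4, 62.1 and 72.7 CPM as lowest, median and highest vehicle animal. The dexamethasone animals had 64.1, 78.1 and 85.0 CPM. All 13 dexamethasone animals lay above the vehicle median, though the ranges overlapped. Hsd17b7 rose by a log2 fold change of 0.27 ± 0.05 (SE, edgeR adjusted p = 2.23e-05), and it was called under each of the 37 alternatives run on the sums.

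By region, the estimates of Hsd17b7 lay between 0.13 in CER and 0.33 in vCA1, and only the vCA1 estimate was called. There, vehicle libraries ran from 49.0 to 87.6 CPM with a median of 62.4 CPM, and dexamethasone libraries from 59.0 to 131 CPM with a median of 71.0 CPM. The groups overlapped. Elsewhere the vehicle and dexamethasone medians were 44.8 and 53.5 CPM in AMY, 75.7 and 84.0 CPM in PFC, 69.8 and 78.0 CPM in PVN, 60.9 and 70.7 CPM in dCA1, 51.0 and 66.9 CPM in dDG, 53.4 and 71.1 CPM in vDG and 98.7 and 97.7 CPM in CER. The dexamethasone median was the higher one in each of these except CER. The vCA1 call was at the threshold, with an edgeR adjusted p of 0.0499. It was lost in 6 of 9 alternatives, with adjusted p up to 0.0869, and without the 1 vehicle library rich in Gabra6 it was 0.0543 at a log2 fold change of 0.33. The fold change lay between 0.32 and 0.37 in all 9. The oligodendrocyte level had medians of 5099 CPM in vehicle and 3696 CPM in dexamethasone vCA1 libraries, and the fit with that level as a covariate was among the 6.

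Nsdhl, the decarboxylating dehydrogenase that acts just before Hsd17b7 (ENSMUSG00000031349, chrX:72918557-72958514), had 28.3, 35.2 and 38.5 CPM as lowest, median and highest vehicle animal in the sums. Dexamethasone animals had 33.7, 39.6 and 45.6 CPM, 12 of 13 of them above the vehicle median, a log2 fold change of 0.23 ± 0.05 (SE, edgeR adjusted p = 0.000557). This gene was called in a pair of regions.

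In CER, Nsdhl ran from 24.4 to 62.6 CPM in vehicle libraries (median 44.7 CPM) and from 34.0 to 77.5 CPM in dexamethasone libraries (median 61.1 CPM). The log2 fold change there was 0.43 ± 0.11 (SE, edgeR adjusted p = 0.0128). In PFC the medians were 34.2 and 43.0 CPM, within 24.4 to 48.4 CPM and 35.3 to 61.8 CPM, and all 14 dexamethasone libraries lay above the vehicle median. The PFC fold change was 0.36 ± 0.11 (SE, edgeR adjusted p = 0.0323). Both calls kept their side of the threshold in every alternative run in those regions. The AMY, PVN and dDG estimates were 0.04, 0.04 and 0.05, with medians of 32.7 and 33.1 CPM in AMY, 43.0 and 43.5 CPM in PVN and 28.0 and 28.3 CPM in dDG. In dCA1, vCA1 and vDG the medians were 24.6 and 28.8 CPM in dCA1, 32.8 and 37.5 CPM in vCA1 and 34.8 and 38.5 CPM in vDG. A difference in response between the 8 regions did not pass its test for Nsdhl (unadjusted p = 0.306).

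Msmo1, the sterol methyl oxidase (ENSMUSG00000031604, chr8:64718139-64733792), had 158, 184 and 202 CPM as lowest, median and highest vehicle animal. Dexamethasone animals had 180.1, 202 and 212 CPM, with 12 of 13 above the vehicle median. This gave a log2 fold change of 0.15 ± 0.04 (SE, edgeR adjusted p = 0.00308). The call was lost with the hippocampal labels left out of the sum (0.13, adjusted p = 0.071) and with AMY, CER, PFC and PVN left out (0.19, adjusted p = 0.0553). No single region was called, with estimates from 0.03 in PFC to 0.23 in vDG. Vehicle and dexamethasone medians were 149 and 165 CPM in AMY, 223 and 238 CPM in CER, 194 and 208 CPM in PFC, 218 and 232 CPM in PVN, 161 and 177 CPM in dCA1, 139 and 141 CPM in dDG and 176 and 218 CPM in vDG. In vCA1, all 15 dexamethasone libraries lay above the vehicle median of 193 CPM, at an edgeR adjusted p of 0.131.

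Fdft1, the squalene synthase (ENSMUSG00000021273, chr14:63145153-63177793), had a vehicle range of 9.68 to 18.0 CPM and a dexamethasone range of 11.6 to 19.7 CPM, with medians of 14.0 and 15.9 CPM. Its log2 fold change was 0.26 ± 0.09 (SE, edgeR adjusted p = 0.0366), and 16 of 37 alternatives lost the call. Its regional estimates ran from 0.07 in CER to 0.47 in vDG, in the 5 regions where it was tested, and none was called. Of its exon bases, 26.8% overlap Ctsb on the other strand, and the use of strand in counting is not given in the sources used here. Sc5d, the lathosterol desaturase (ENSMUSG00000032018, chr9:42254177-42264300), had medians of 51.2 and 56.8 CPM, within 46.6 to 57.0 CPM and 50.4 to 66.8 CPM. Its log2 fold change was 0.13 ± 0.04 (SE, edgeR adjusted p = 0.0302), and 10 of 37 alternatives lost the call. The regional estimates of Sc5d ran from -0.06 in vDG to 0.26 in PFC, none called. With the hippocampal labels left out of the sum it was 0.22, and with AMY, CER, PFC and PVN left out 0.04.

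The remaining genes of these steps were not called in the sums with all summed animals kept. Cyp51, the lanosterol demethylase, came nearest, at 0.10 ± 0.04 (SE) with an edgeR adjusted p of 0.0965. Without dexamethasone replicate 1, Cyp51 was called, at 0.11 (edgeR adjusted p = 0.0487). Sqle, the squalene epoxidase, was at 0.02 with medians of 50.2 and 51.0 CPM. Lss, which closes the ring, was at 0.13, Tm7sf2, a sterol reductase, at 0.04, Ebp, the sterol isomerase, at -0.05 and Dhcr7, which makes cholesterol in the last step, at -0.02. Tm7sf2 could not be tested for dexamethasone in any single region.

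**Figure D2:**
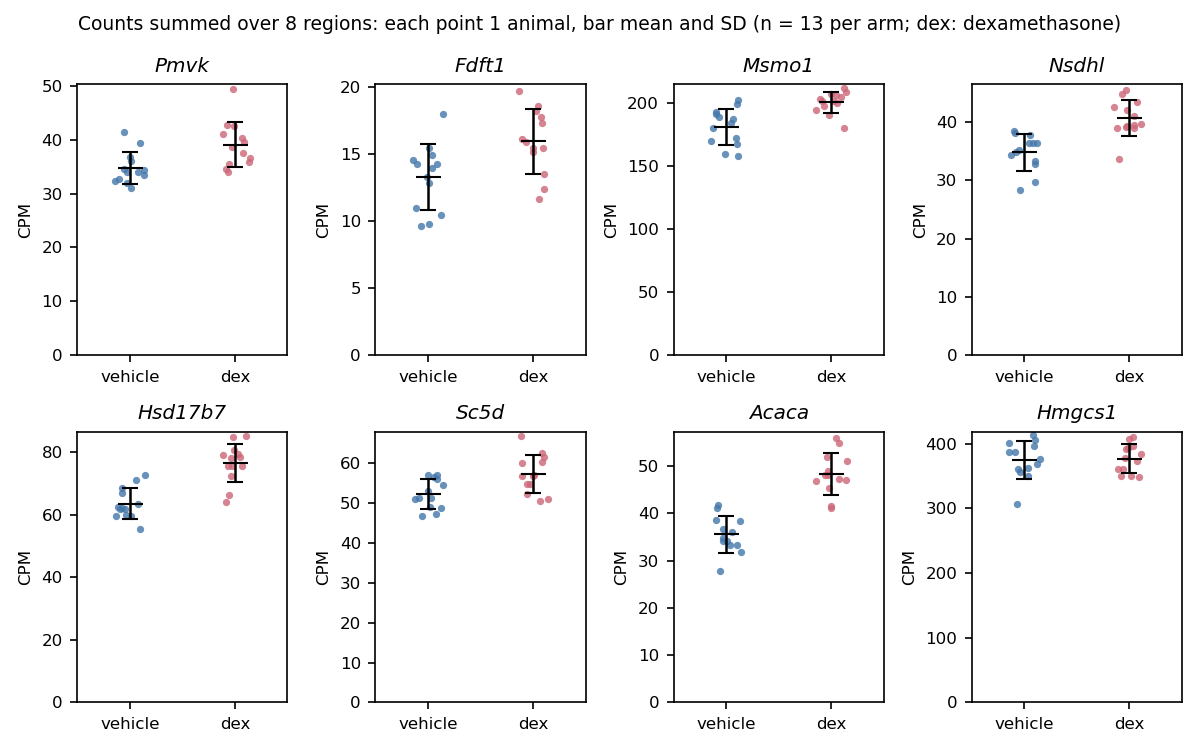
Level in CPM of the 7 called genes and of Hmgcs1 in counts summed over 8 regions, for 13 vehicle (blue) and 13 dexamethasone (red, dex) animals. Points are animals and bars are mean and SD; the arms overlap in every panel, and Hmgcs1 is at nearly the same level in both arms.

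Of the 5 genes that sense sterol, none was called in the sums. The transcription factor genes Srebf1 and Srebf2 were at -0.09 ± 0.06 (SE) and -0.07 ± 0.04 (SE). The Srebf2 medians were 105 and 99.0 CPM, and 2 of 13 dexamethasone animals lay above the vehicle median. Insig1 was at 0.06 and Insig2 at -0.05. Stard4, the carrier that moves cholesterol through the cytosol, was at 0.02, with medians of 27.4 and 28.5 CPM. These values concern transcripts, while SREBP proteins are controlled by cleavage, which was not measured.

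Of the single regions, Scap was called in PVN alone. With the hippocampal labels left out of the sum it was also called, at a log2 fold change of 0.15 (edgeR adjusted p = 0.0428). The 14 vehicle PVN libraries had 32.2, 45.4 and 63.0 CPM as lowest, median and highest, and the 15 dexamethasone libraries had 42.0, 57.1 and 75.2 CPM. The groups overlapped, with 13 of 15 dexamethasone libraries above the vehicle median. The log2 fold change was 0.36 ± 0.10 (SE, edgeR adjusted p = 0.0240), against -0.21 in dDG and 0.06 in the sums. Libraries on 1 of the 4 plates gave the other direction, at -0.10. The summed Oxt, Avp and Sim1 level differed between these groups, with medians of 174 CPM in vehicle and 784 CPM in dexamethasone libraries. With that level as a covariate the fold change of Scap was 0.32, with an adjusted p of 0.0716. With the oligodendrocyte level as a covariate it was 0.24, with an adjusted p of 0.383. Insig1 had medians of 12.2 and 17.0 CPM in the same PVN libraries and was not called (0.48 ± 0.19, SE, edgeR adjusted p = 0.149).

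Among the 3 genes of fatty acid synthesis, Acaca alone was called by the test without a block, and it changed more than any other gene of the set. Acaca encodes acetyl-CoA carboxylase, which makes malonyl-CoA and commits carbon to fatty acids (ENSMUSG00000020532, chr11:84129672-84401651). In the sums, vehicle animals had 27.9, 34.8 and 41.7 CPM as lowest, median and highest, and dexamethasone animals 41.2, 48.2 and 55.9 CPM. The ranges overlapped only at their edges, and all 13 dexamethasone animals lay above the vehicle median. The log2 fold change was 0.44 ± 0.05 (SE, edgeR adjusted p = 8.71e-08), and it was called under each of the 37 alternatives, from 0.34 to 0.63.

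Acaca was called in 3 regions. In CER, vehicle libraries had 36.7, 52.7 and 72.8 CPM and dexamethasone libraries 56.6, 87.7 and 114 CPM as lowest, median and highest. Every dexamethasone library lay above the vehicle median there, and the log2 fold change was 0.79 ± 0.10 (SE, edgeR adjusted p = 1.63e-07). Prox1, a transcription factor gene of dentate granule cells, was lower in dexamethasone than in vehicle CER libraries, by -1.04 on the log2 scale (edgeR adjusted p = 3.72e-07). Its medians were 126 CPM in vehicle and 55.3 CPM in dexamethasone libraries, and the summed dentate markers had medians of 150.2 and 77.5 CPM. Prox1 medians were also lower after dexamethasone in AMY (84.2 and 63.4 CPM), PVN (128 and 101 CPM), PFC (42.4 and 36.0 CPM) and dCA1 (533 and 410 CPM). They were higher in dDG, vCA1 and vDG. The part of these shifts in the calls of Acaca and Nsdhl was not tested. In AMY the Acaca medians were 38.8 and 53.5 CPM, within 16.2 to 53.9 CPM and 30.6 to 70.6 CPM, a log2 fold change of 0.51 ± 0.13 (SE, edgeR adjusted p = 0.00878).

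In vDG, Acaca ran from 22.2 to 52.9 CPM in vehicle libraries (median 29.6 CPM) and from 24.7 to 92.9 CPM in dexamethasone libraries (median 44.7 CPM). The log2 fold change was 0.62 ± 0.17 (SE, edgeR adjusted p = 0.0275), and 0.66 without the 3 libraries rich in Gabra6 (adjusted p = 0.0399). Of the 5 dates of punching, 4 had at least 2 animals in each arm and could be set side by side, and 1 of these 4 gave -0.09 in vDG. The CER and AMY calls had the same direction on those 4 dates and on the 4 plates. Regions where Acaca was not called gave 0.43 in dCA1, 0.31 in PVN, 0.20 in vCA1, 0.09 in PFC and 0.03 in dDG. Vehicle and dexamethasone medians there were 28.6 and 35.9 CPM in dCA1, 44.2 and 54.3 CPM in PVN, 30.2 and 37.7 CPM in vCA1, 35.5 and 34.0 CPM in PFC and 31.9 and 30.5 CPM in dDG.

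The response of Acaca passed a test of difference among the 8 regions. An interaction of region and treatment, with each animal as a block, gave an edgeR adjusted p of 0.0479, and Acaca was the 1 gene called of 30 tested, against 1.27% of 11053 genes. Of the other 29, 1 had an unadjusted p under 0.05 (Pmvk, 0.0109, adjusted p = 0.316). The call for Acaca lay at the threshold: its adjusted p was 0.0661 without the libraries rich in Gabra6 and 0.14 with limma, within 0.0273 to 0.14 over the 7 alternatives, 5 of which lost the call. CER and AMY, with the largest and the third largest Acaca estimates, were also the regions with the highest oligodendrocyte levels. Their vehicle medians were 15143 and 10239 CPM, against 2199 to 5909 CPM elsewhere. The part of those cells in the result was not tested. With the oligodendrocyte level as a covariate, the Acaca estimates were 0.82 in CER and 0.64 in AMY.

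**Figure D3:**
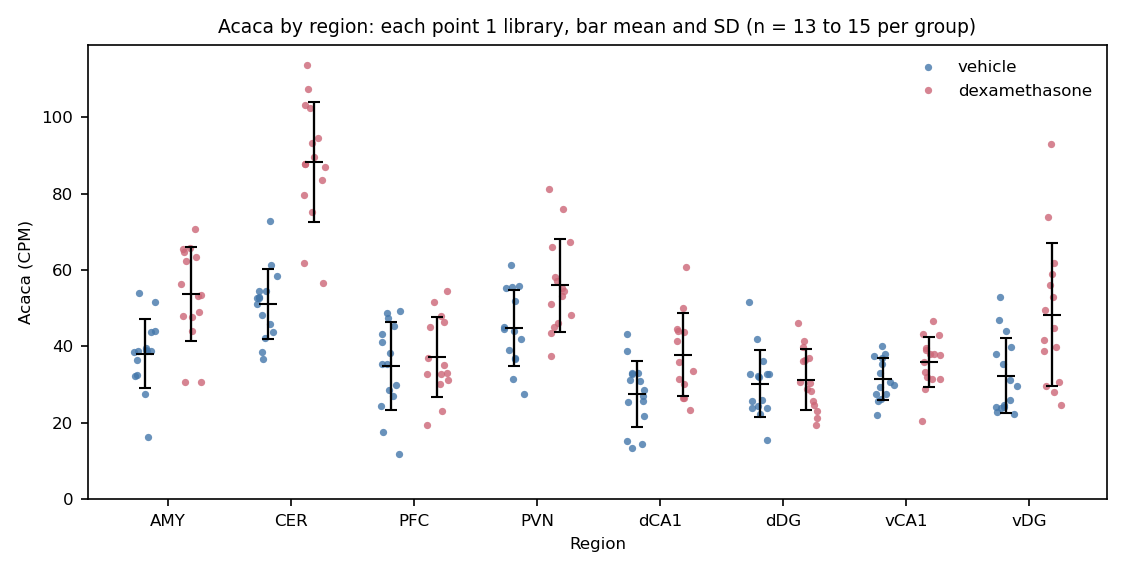
Acaca level in CPM in each library of the 8 regions, vehicle in blue and dexamethasone in red, with mean and SD of 13 to 15 libraries. In CER the dexamethasone libraries sit between 56.6 and 114 CPM against 36.7 to 72.8 CPM in vehicle, while in PFC and dDG the dexamethasone median lies below the vehicle median.

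Acly, which makes cytosolic acetyl-CoA from citrate, and Fasn, the fatty acid synthase, did not share the change of Acaca. In the sums Acly was at -0.04 ± 0.05 (SE), with medians of 60.9 and 57.4 CPM. Fasn was at -0.04 ± 0.04 (SE), with medians of 117 and 113 CPM, and 1 of 13 dexamethasone animals lay above the vehicle median. The lowest Fasn estimate was -0.31 in dDG, with an edgeR adjusted p of 0.219 and, with the replicate number as a block, 0.0335.

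None of the 5 genes of elongation and desaturation was called, in any region tested or in the sums, by the test without a covariate. With the oligodendrocyte level as a covariate, Scd1 was called in the sums and Scd2 in AMY, the latter at 0.27 against 0.06 without it (edgeR adjusted p = 0.0192). Elovl6, which lengthens palmitate, gave -0.08 ± 0.05 (SE) in the sums and was negative in 7 of 8 regions, with the lowest estimate in AMY (-0.23). Scd1 and Scd2, the desaturases that make monounsaturated fatty acids, gave 0.04 ± 0.07 (SE) and 0.01 ± 0.04 (SE). Scd2 ran from 843 to 1021 CPM in vehicle animals and from 858 to 1055 CPM in dexamethasone animals. The Scd genes are similar in sequence, and how reads shared between them were counted is not given in the sources used here. Fads1, which makes polyunsaturated fatty acids, gave 0.01, and Fads2, its partner, 0.06 at medians of 4.76 and 4.97 CPM.

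A list of 48 further genes of the same pathways gave calls in both directions. In the sums, 14 of 46 tested were called, 7 higher and 7 lower, against 18.6% of all genes tested. Ggps1, the geranylgeranyl diphosphate synthase, was higher by 0.18, and Erlin2, a protein of the endoplasmic reticulum membrane, by 0.16.

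The 2 genes with the largest changes on that list in the sums were Hacd2 and Abca1. Hacd2, the dehydratase of fatty acid elongation, ran from 23.4 to 34.1 CPM in vehicle animals and from 56.3 to 79.0 CPM in dexamethasone animals. The fold change of Hacd2 in the edgeR fit was 2.30 (edgeR adjusted p = 2.49e-17, SE 0.06 on the log2 scale). Hacd2 was higher in all 8 regions, by 0.73 to 1.38 on the log2 scale. Abca1, which exports cholesterol, ran from 37.1 to 60.2 CPM and from 78.4 to 103 CPM, a log2 fold change of 0.88 ± 0.06 (SE, edgeR adjusted p = 1.36e-14), and was higher in all 8 regions, by 0.51 to 1.12.

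Thrsp and Mid1ip1, related proteins that form a complex, were called in opposite directions. Thrsp, known for its role in lipogenesis, had medians of 28.5 and 39.0 CPM and a log2 fold change of 0.40 ± 0.05 (SE, edgeR adjusted p = 3.86e-07). Mid1ip1, which promotes polymerisation of acetyl-CoA carboxylase, had medians of 145 and 122 CPM and fell by 0.27 on the log2 scale (SE 0.05, edgeR adjusted p = 0.000111). Scd3 was higher by 0.42, at medians of 8.08 and 11.2 CPM. Lower in the sums were also Elovl7, an elongase (-0.43), Mylip, a ubiquitin ligase induced by oxysterols (-0.35), and the exporters Abcg1 (-0.21) and Abcg4 (-0.12). Stard3, a cholesterol binder of endosomes (-0.17), and Soat1, which esterifies cholesterol (-0.17), completed the 7.

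Without treatment, the level of most of the 32 genes depended on the region. Among vehicle libraries, with each animal as a block, an edgeR test over the 8 regions called 27 of 30 tested genes, against 73.3% of 10451 genes. Mvk, Tm7sf2 and Scap were not called. The 30 genes were highest most often in CER (18 genes) and PVN (6), and lowest in dCA1 (9), dDG (9) and AMY (6). The ratio of the highest to the lowest regional mean ran from 1.27 for Scap to 3.07 for Scd1.

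Scd1 reached 393 ± 84.3 CPM in CER (SD, n = 15), 321 ± 59.3 CPM in PVN (SD, n = 14) and 289.9 ± 63.3 CPM in AMY (SD, n = 15). In the other regions it lay between 128 and 214 CPM. Scd2 had the same 3 regions at the top, at 1349 ± 212 CPM in CER, 1212 ± 136 CPM in PVN and 1192 ± 188 CPM in AMY (SD), and 728 to 843 CPM elsewhere. Acat2, with the next smallest p, was 80.0 ± 18.1 CPM in CER (SD, n = 15), 68.3 ± 14.5 CPM in PVN (SD, n = 14) and 37.5 ± 6.39 CPM at its lowest, in dDG (SD, n = 15). Srebf1 had its highest mean in AMY (39.8 ± 9.16 CPM, SD, n = 15) and its lowest in PFC (20.8 ± 7.14 CPM, SD, n = 15). Across the 8 regional means, Scd1, Scd2, Srebf1 and Acly had a Pearson r of 0.88, 0.88, 0.89 and 0.88 with the oligodendrocyte level, as a description over 8 points that share animals.

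Hmgcs1 and Msmo1 had another order of regions. Hmgcs1 was highest in CER, at 496 ± 73.9 CPM (SD, n = 15), followed by PVN (439 ± 61.2 CPM, SD) and PFC (431 ± 65.6 CPM, SD), and it lay at 319.6 ± 40.0 CPM (SD) in AMY. Msmo1 gave 224 ± 37.9 CPM (SD) in CER, 215 ± 35.9 CPM (SD) in PVN, 199.7 ± 27.1 CPM (SD) in PFC and 139.8 ± 26.7 CPM (SD) in AMY. For both genes CER, PVN and PFC lay within 1 SD of the next region in that order. The same correlation with the oligodendrocyte level was 0.25 for Hmgcs1 and 0.09 for Msmo1. Over the genes of the mevalonate and later sterol steps it ran from -0.33 for Tm7sf2 to 0.71 for Dhcr7, with Fdps at -0.0071, Fdft1 at 0.025 and Ebp at 0.59. Of the sensing genes, Scap was at -0.72 and Srebf2 at -0.47, and Fads1 was at -0.24. Insig1 was 20.6 ± 6.56 CPM in CER (SD, n = 15) and 7.38 to 12.0 CPM elsewhere, and Stard4 43.2 ± 10.9 CPM in CER (SD, n = 15) and 16.4 CPM at its lowest, in dDG. With the oligodendrocyte level as a covariate, 26 of 30 genes were called, Ebp being the call lost. Without the libraries rich in Gabra6, 28 were called, the same 27 among them.

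**Figure D4:**
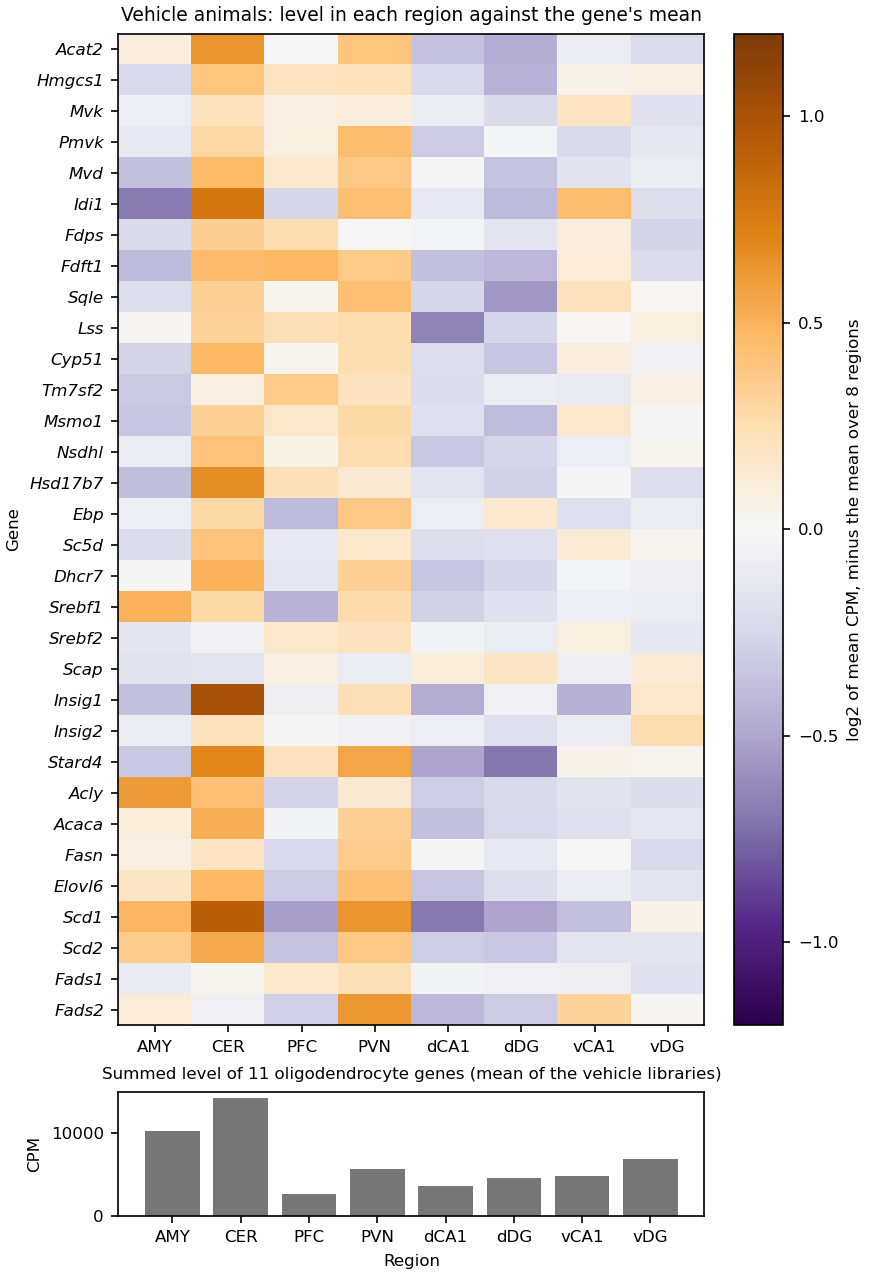
Log2 of the mean level (CPM) of the 32 genes in vehicle libraries of each region, minus the gene's mean over the 8 regions (upper panel), and the mean summed level of 11 oligodendrocyte genes in CPM (bars, 14 or 15 libraries each). CER is the highest region for 18 of the 30 tested genes, and Scd1, Scd2, Srebf1 and Acly are high in AMY while most sterol genes are low there.

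Dorsal and ventral punches of the same vehicle animals differed in sterol genes. Between dCA1 and vCA1, in 14 animals, 7 of 23 tested genes were called, all lower in dCA1, against 21.1% of 8712 genes called, 11.2% higher and 9.96% lower. Between dDG and vDG, in 15 animals, 5 of 23 were called, all lower in dDG, against 11.6% of 8682 genes called, 5.92% higher and 5.63% lower. Hmgcs1, Sqle, Msmo1 and Stard4 were called in both. The dCA1 contrast also called Cyp51, Sc5d and Scd1, and the dDG contrast Insig2. Median log2 differences of the set were -0.19 and -0.17, against 0.01 and -0.01 over all genes tested.

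Msmo1 had a median of 157 CPM in dCA1 and 193 CPM in vCA1, within 125 to 177 CPM and 138 to 234 CPM. It was lower in dCA1 in 13 of 14 animals, by a log2 difference of -0.33 ± 0.09 (SE, edgeR adjusted p = 0.00552). Hmgcs1 had medians of 271 CPM in dDG and 399 CPM in vDG, within 186 to 361 CPM and 220 to 685 CPM. It was lower in dDG in 14 of 15 animals, by -0.51 ± 0.09 (SE, edgeR adjusted p = 0.000619). Sqle had medians of 41.0 CPM in dCA1 and 56.6 CPM in vCA1, and of 32.7 CPM in dDG and 48.8 CPM in vDG. Its log2 differences were -0.44 ± 0.11 (SE, edgeR adjusted p = 0.0031) and -0.58 ± 0.14 (SE, edgeR adjusted p = 0.00698). Stard4 showed the largest difference of these calls, -0.73 ± 0.17 (SE) between dDG and vDG, with medians of 15.8 and 29.8 CPM.

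Several values moved with these contrasts. The vehicle oligodendrocyte level had medians of 3365 CPM in dCA1 and 5099 CPM in vCA1, and of 4834 CPM in dDG and 5909 CPM in vDG. The summed dentate markers had vehicle medians of 834 CPM in dCA1 and 125 CPM in vCA1, and of 666 CPM in dDG and 285 CPM in vDG. Choroid plexus genes had 152 CPM in dCA1 and 54.5 CPM in vCA1, and 1306 CPM in dDG and 62.8 CPM in vDG. Neuronal genes, like the called sterol genes, were lower on the dorsal side, with 3612 CPM in dCA1 and 4458 CPM in vCA1, and 3133 CPM in dDG and 3854 CPM in vDG. The part of dentate, choroid plexus and neuronal RNA in these results was not tested. With the oligodendrocyte level as a covariate, 1 of the 7 dCA1 calls remained (Sqle, adjusted p = 0.0102). The log2 differences of those lost were -0.28 for Sc5d, -0.44 for Stard4, -0.26 for Cyp51, -0.25 for Scd1, -0.23 for Msmo1 and -0.19 for Hmgcs1, against -0.30, -0.53, -0.34, -0.34, -0.33 and -0.32 without the covariate. With it, the dDG contrast still had 5 calls, the same genes. DESeq2 gave 4 calls for dCA1 against vCA1. Without the libraries rich in Gabra6, 8 genes were called for dCA1, the same 7 and Acat2, and 4 for dDG, where Insig2 was lost at an adjusted p of 0.0537 with a log2 difference of -0.49, against -0.48 with them. Whether a punch lay where its label places it was not tested.

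Some of the genes varied together among libraries of the same group. Each gene's log2 level was centred on its group mean, and Pearson's r was taken over all libraries for the 435 pairs of 30 genes, as a description. The median r was 0.07. Over all pairs of the 11053 genes that passed the count filter over all libraries, the mean was 0.0011 and no median was taken. The 3 highest values were 0.61 for Scd1 and Scd2, 0.60 for Scd2 and Fads1 and 0.57 for Srebf1 and Scd2. Fasn and Scd2 gave 0.51. Among sterol genes the highest values were 0.53 for Sqle and Msmo1 and 0.52 for Cyp51 and Msmo1, but the median over their 136 pairs was 0.07, with 9 pairs over 0.3. The 21 pairs among genes of fatty acids had a median of 0.15, with 7 over 0.3. Of 119 pairs of a sterol gene with a gene of fatty acid synthesis, elongation or desaturation, 4 passed 0.3. The share of all gene pairs over 0.3 was not counted, so these counts stand without a background.

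Acaca had r of 0.36 with Scd1 and of -0.01 with Acly. Insig2 and Fasn gave -0.38, and Hsd17b7 and Srebf1 -0.34. Libraries also share depth, RNA quality and cell content: within groups, Scd1 had r of 0.70 with the oligodendrocyte level, -0.32 with the log2 library total and -0.23 with RNA integrity. Msmo1 had 0.12, 0.04 and -0.02 with the same 3 measures. Their part in the pairs was not tested.

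**Figure D5:**
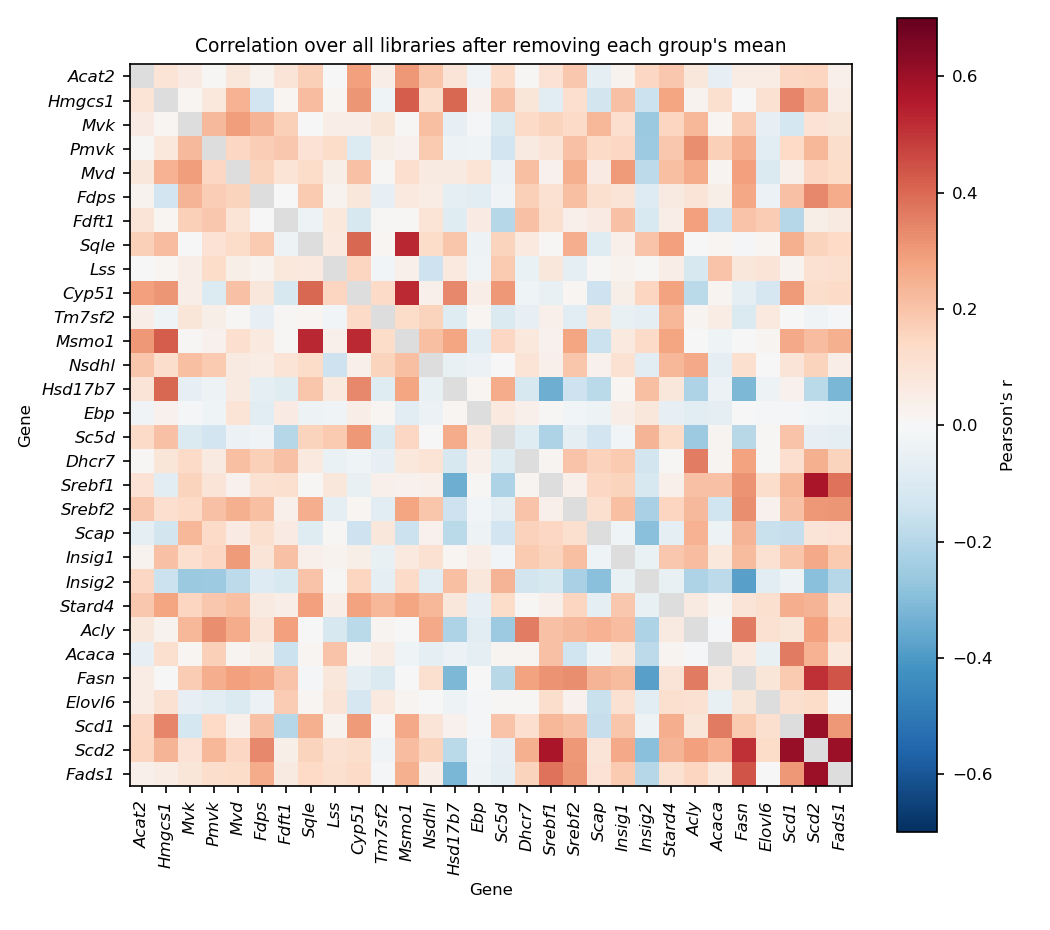
Pearson's r between 30 of the genes over all libraries, after each group's mean was removed (colour from -0.7 to 0.7, grey on the diagonal). The darkest red cells join Scd2 with Scd1, Fads1, Srebf1 and Fasn, and Msmo1 with Sqle and Cyp51.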

How the data were processed

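Messenger RNA 3′ tags were sequenced from libraries that each held 1 punched region of 1 animal. The deposited table holds whole-number counts per gene, made with FastQC 0.11.4, cutadapt, UMI-tools 0.5.4, STAR 2.6.0a and featureCounts 1.6.4 on mm10, per the submitters' processing notes. Strand use in counting is not given in the sources used here. Symbols were matched by gene ID for 27645 of 27998 genes.

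From these counts, edgeR 4.0.16 in R 4.3.3 gave TMM factors, CPM and quasi-likelihood tests with Benjamini-Hochberg adjustment over all genes that passed its expression filter; genes were called at an adjusted p under 0.05. Dexamethasone was set against vehicle in each region and in counts summed per animal. Region differences, dorsal against ventral punches and the interaction of region and treatment had the animal as a block. Alternatives used DESeq2 1.42.0, limma 3.58.1, other factors, filters and covariates, and left out libraries or animals. The scripts were tested on simulated data: of genes changed by 1.25-fold in the sums, 59.0% were recovered, in PVN 26.3%, for dCA1 against vCA1 11.0% and, with 1 of the 8 regions changed, 14.4% by the region test, where 8.22% of calls were false. Library totals had a median of 742957 counts, and 6 libraries had an RNA integrity number under 4.

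The members and lists were chosen with earlier results of these data known. Values are given for members called in the sums, in at least 2 regions or in the interaction, for the 3 with the smallest p in the interaction, among regions and between dorsal and ventral punches, and otherwise by range and count. Members named for a call in 1 region, or for their place in a range or a correlation, were added after their values were seen. Some genes of the lists are counted but not reported here by name.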

Additional observations from a re-analysis of the deposited data

Results flagged for a closer look

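Acaca was the 1 gene of the set whose response to dexamethasone passed the test of a difference among the 8 regions, at the threshold, with an edgeR adjusted p of 0.0479 for the interaction of region and treatment. Its log2 fold change was 0.79 in CER, 0.62 in vDG and 0.51 in AMY, against 0.09 in PFC and 0.03 in dDG. The call was lost in 5 of 7 alternatives, over which the adjusted p ran from 0.0273 to 0.14.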

How the results depend on the processing

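Counts of called genes are given here under each change that moved them by over 1.5 times. Shares of all genes called are given for the main fits only, so counts under an alternative stand without one. With the oligodendrocyte level as a covariate, the count was 2 in AMY, 0 in PVN, 0 in vCA1, 4 in the sums, and 1 for dCA1 against vCA1. With the Oxt, Avp and Sim1 level as a covariate it was 0 in PVN. In vCA1 it was 0 with upper-quartile factors, with no filter, with at least 10 counts in every library, without libraries of RNA integrity under 4 and without the library rich in Gabra6. In vDG it was 1 under the first 4 of these. It was 4 in the sums with AMY, CER, PFC and PVN left out, and 4 with DESeq2 for dCA1 against vCA1. For the interaction it was 0 with no block for the animal, no filter, limma, without libraries of low RNA integrity and without libraries rich in Gabra6. The cause of these changes was not tested. Leaving out each animal in turn gave 5 to 7 calls in the sums, the lowest without vehicle replicate 7.

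Same-numbered libraries of a region shared a plate in 115 of 115 pairs, and 14 of 15 numbers shared a date of punching across arms. The median correlation of their deviations was 0.05 to 0.21 by region, and not every pair passed 0.1. With the replicate block, the count was 1 in AMY, PFC, PVN, dCA1 and vCA1, 2 in CER and vDG, and 6 in the sums, all higher, where Sc5d was lost (adjusted p = 0.113). In dDG it was 1, Fasn, which was lower. With no block for the animal, 28 genes differed among vehicle regions, 7 between dCA1 and vCA1 and 5 between dDG and vDG. Alternatives were run for the 15 called results of single genes, and none of these reversed its direction. The peptide covariate, the exclusions for Gabra6, the sums over part of the regions and, for the sums, the omission of single animals or of low RNA integrity and the date factor were chosen after seeing the data. Shallow libraries limit genes of low level, and 3 of the 32 (Idi1, Tm7sf2 and Fads2) could not be tested for dexamethasone in any single region.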
